A study of Mus musculus with 6 samples.

Results

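The genes described are those that encode the proteins of the cytosolic ribosome. They were chosen by name, as the protein-coding genes of the deposited table whose symbol is Rpl or Rps with a number, Rpsa, or Rplp0, Rplp1 or Rplp2. The rule found 80 of 21999 genes, of which 45 belong to the large subunit, 32 to the small subunit and 3 to the stalk of the large subunit. Ribosomal proteins with other names, such as Fau and Rack1, lie outside the rule and were described as a separate list.

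Total RNA was sequenced from cultured mouse lung microvascular endothelial cells, 3 libraries labelled Ptprz1+/+ and 3 labelled Ptprz1-/-. All came from untreated cells on the SV129/B6 background, and each library was a separate isolation from the pooled lungs of 2 to 5 mice aged 3 to 8 weeks, selected on beads for CD31 after growth to confluence. Ptprz1 encodes a receptor tyrosine phosphatase, and the comparison asks which transcripts differ in endothelial cells of mice without it. The labels name no Cre and no transgene. Depth was between 14496881 and 17709663 counts per library. Ptprz1 itself gave no separation of the genotypes, with 197, 1837 and 508 counts in the Ptprz1+/+ libraries and 1138, 1320 and 895 counts in those labelled Ptprz1-/-, so each direction rests on the labels. No library had an endothelial marker at 0, but the 10 endothelial markers summed to 28.6, 35.6 and 538 CPM (counts scaled to the library size) in the Ptprz1+/+ libraries and to 26.6, 16.8 and 174 CPM in those labelled Ptprz1-/-. The 10 fibroblast markers summed to between 16000 and 29850 CPM in each library. The endothelial markers were thus low in 4 of the 6 libraries.

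A cytosolic ribosome holds a single copy of most of its proteins, and cells make them in step with each other and with ribosomal RNA. The stalk proteins are the exception, since dimers of Rplp1 and Rplp2 sit on Rplp0 and recruit the translation factors that use GTP. The mRNAs of ribosomal proteins begin with a C and a run of pyrimidines, the terminal oligopyrimidine tract, through which mTOR signalling through Larp1 controls their translation. Ribosomal protein genes have also left many processed copies in mammalian genomes, whose sequence can be nearly that of the parent mRNA.

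The first set of sequences shows how close such copies come to Rplp0, the gene on which the comparison with the other members turns. The window is 60 bases of Rplp0 in exon 5 of 7, with the same stretch of the 3 copies that were read most, all on build GRCm38 and written 5′ to 3′ on the strand of the transcript. Capitals in Rplp0 mark the positions at which any of the 3 copies differs, and capitals in a copy mark its own differences from Rplp0. Rplp0 lies at chr5:115561411-115561470 on the plus strand, Gm8730 at chr8:102865196-102865255 on the minus strand, Gm9625 at chr13:67810789-67810848 on the plus strand and Gm14165 at chr2:152354156-152354215 on the plus strand.
Rplp0: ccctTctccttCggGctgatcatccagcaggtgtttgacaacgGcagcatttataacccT
Gm8730: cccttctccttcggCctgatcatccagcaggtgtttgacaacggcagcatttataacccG
Gm9625: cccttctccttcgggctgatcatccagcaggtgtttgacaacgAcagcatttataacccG
Gm14165: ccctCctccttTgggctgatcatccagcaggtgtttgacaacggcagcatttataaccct
Each copy differed from Rplp0 at 2 positions of this window. Within the coding sequence it was chosen where the least different copy had the most differences, so it is not a typical stretch. Over the whole aligned transcript, Gm8730 differed at 12 of 954 bases, Gm9625 at 24 of 954 and Gm14165 at 25 of 952. The longest stretches without a difference were 170 bases in Gm8730 and 193 in Gm9625.

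The second set shows the starts of 6 members that are described below, from 20 bases before the RefSeq start of the gene to 20 bases from the start on (GRCm38.p6). Capitals mark the longest run of C and T in the window. Rpl35 lies at chr2:39005112-39005151 on the minus strand, Rps27 at chr3:90213629-90213668 on the minus strand, Rplp0 at chr5:115559447-115559486 on the plus strand, Rplp2 at chr7:141447631-141447670 on the plus strand, Rps6 at chr4:86857348-86857387 on the minus strand and Rpl13a at chr7:45128726-45128765 on the minus strand.
Rpl35: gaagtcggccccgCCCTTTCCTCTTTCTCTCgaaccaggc
Rps27: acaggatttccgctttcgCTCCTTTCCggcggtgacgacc
Rplp0: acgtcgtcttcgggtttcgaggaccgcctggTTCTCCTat
Rplp2: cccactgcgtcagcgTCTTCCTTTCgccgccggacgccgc
Rps6: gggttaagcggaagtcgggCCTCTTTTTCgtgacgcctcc
Rpl13a: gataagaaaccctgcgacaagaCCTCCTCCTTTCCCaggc
The runs were 18 bases in Rpl35, 9 in Rps27, 7 in Rplp0, 10 in Rplp2, 10 in Rps6 and 14 in Rpl13a. These 6 do not stand for all members. Among other members named below, the longest run was 3 bases in Rpl24, Rpl41 and Rps3, and 13 in Rpl31. Rpl34 had runs of 20 and 8 at its listed starts. RefSeq promoter entries were found for 59 members. A run of at least 6 pyrimidines lay in this window in 42 of the 59 (71.2%), against 41.2% of the 27025 genes with an entry. A C at the start itself followed by 4 pyrimidines was found in 13 (22.0%), against 3.01% of all genes. Among the entries of 250 bases before and 50 after the start, 25 members (42.4%) held CCGGAAG on either strand, against 9.93% of all genes. These letters are the core bound by ETS-family factors, and the match is a description of sequence only. In the 50 bases before the start, TATAAA was found in 0 of the 59 members, against 3.15% of all genes.

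Most ribosomal protein genes lay slightly higher in the libraries labelled Ptprz1-/-, Rplp0 did not, and none of the differences passed the test. Counts were scaled by edgeR's TMM method, which sets library sizes so that most genes do not differ, and 78 of the 80 members had enough reads to be tested. Of the 78, 72 had a log2 fold change above 0 (92.31%), against 49.1% of the 13609 genes tested. The median log2 fold change of the members was 0.195, a fold of 1.145, with quartiles of 0.145 and 0.242, and the median of all genes was -0.0047. By the quasi-likelihood test of edgeR, with Benjamini-Hochberg adjustment over all genes, 0 members passed an adjusted p of 0.05, as did 0.0% of all genes, and the lowest adjusted p of a member was 1.0. At an unadjusted p under 0.05 stood 1 member, Rpl35, and 366 genes in all (2.69%). DESeq2 and limma voom also called 0 members, and the genes that each fit called in all are given in the last section. Standard errors of the members were between 0.124 and 0.715, with a median of 0.193, so the typical difference was about as large as its own error. In bulk RNA, more cells that make many ribosomes and more of these mRNAs per cell cannot be told apart.

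The shift followed single libraries. The median over the members, as the log2 of CPM over each gene's mean of 6 libraries, for Ptprz1+/+ replicates 1 to 3 was 0.009, -0.049 and -0.30, and it was 0.271, 0.098 and -0.134 in their Ptprz1-/- counterparts in the same order. Replicate 1 labelled Ptprz1-/- held the highest value of 65 of the 78 members (83.33%, against 17.55% of all genes), and Ptprz1+/+ replicate 3 the lowest value of 65 (83.33%, against 15.22% of all genes). The genotypes therefore overlapped: replicate 3 labelled Ptprz1-/- was above Ptprz1+/+ replicate 1 in only 13 members and above replicate 2 in 25. Without Ptprz1+/+ replicate 3 the median log2 fold change fell to 0.097 with 65 members above 0, and without replicate 1 labelled Ptprz1-/- it was 0.089 with 63 above 0. Other measures also moved with these libraries. The 6 mesothelial markers summed to 1380 CPM in replicate 1 labelled Ptprz1-/- and to between 55.8 and 279 CPM in the other libraries, and the 10 endothelial markers had their highest sum, 538 CPM, in Ptprz1+/+ replicate 3. Mitochondrially encoded transcripts took 1.166% of counts in Ptprz1+/+ replicate 3 and 1.12% in replicate 3 labelled Ptprz1-/-, against 0.664% to 0.917% in the rest. Their part in the shift was not tested.

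**Figure D1:**
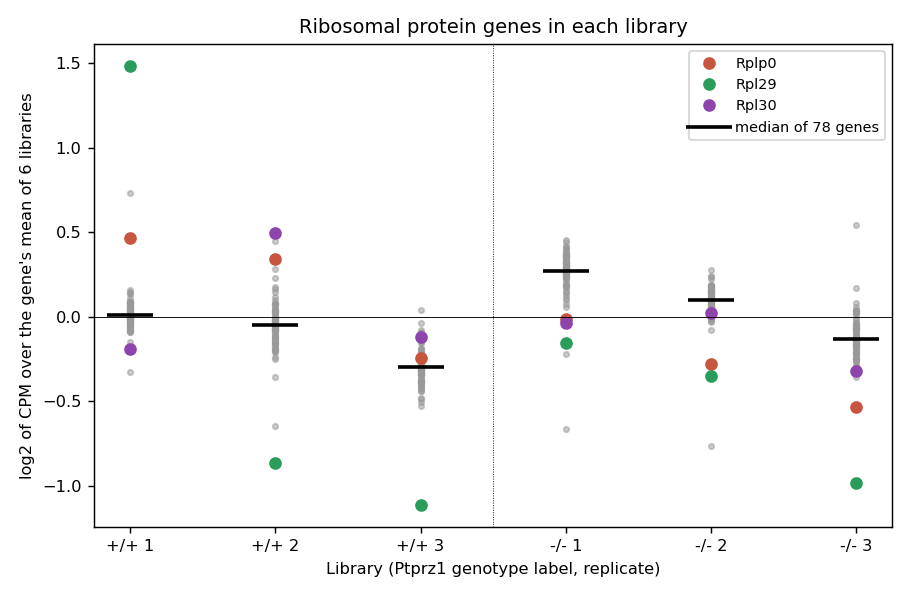
Each point is 1 of the 78 tested ribosomal protein genes in 1 library, as the log2 of its CPM over its mean of the 6 libraries (vertical axis), with libraries by Ptprz1 genotype label and replicate on the horizontal axis and black lines for the medians. Most genes move together within a library, highest in -/- replicate 1 and lowest in +/+ replicate 3, while Rplp0, Rpl29 and Rpl30 leave the cloud in several libraries.

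Within a library the members kept close to each other. Of the 78, 66 lay within 0.25 log2 units of their library's median position in every library. The members that left it most in a single library were Rpl29, 1.476 above in Ptprz1+/+ replicate 1, Rpl39l, 0.935 below in replicate 1 labelled Ptprz1-/-, at most 27 counts, Rps4l, 0.866 below in replicate 2 labelled Ptprz1-/-, and Rpl23a, 0.828 below in Ptprz1+/+ replicate 2. Rplp0 was 0.46 above in Ptprz1+/+ replicate 1.

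The 3 stalk genes did not move alike. Rplp0 (ENSMUSG00000067274, chr5:115559467-115563727 of GRCm38, the build of all gene positions here) anchors the stalk to the large subunit. It stood at 1941, 1777 and 1183 CPM in Ptprz1+/+ cells, against 1390, 1157 and 969 CPM in those labelled Ptprz1-/-, so replicate 3 of the Ptprz1+/+ group lay among the others and the groups overlapped. Its log2 fold change was -0.48 (standard error 0.27, unadjusted p = 0.12, edgeR). Rplp1 (chr9:61913284-61914538), a stalk protein that binds Rplp0 as a dimer with Rplp2, was at 1720, 1574 and 1239 CPM and at 2067, 1831 and 1489 CPM, which gave 0.25 on the log2 scale (standard error 0.24). Rplp2 (chr7:141447370-141451585) was at 709, 727 and 524 CPM and at 825, 760 and 582 CPM, a log2 fold change of 0.14 (standard error 0.22). Rplp1 and Rplp2 followed the library pattern of the other members, and only Rplp0 of the 3 had a value below 0.

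Genes with near-identical sequence to Rplp0 held a larger part of the summed counts in the libraries labelled Ptprz1-/-, without passing the adjusted test. The 4 copies of Rplp0 in the table, Gm8730, Gm9625, Gm14165 and Rplp0-ps1, held 2.069%, 4.851% and 16.15% of the summed counts in the Ptprz1+/+ libraries and 40.6%, 41.05% and 42.33% in those labelled Ptprz1-/-. The 3 libraries labelled Ptprz1-/- were nearly equal, while those labelled Ptprz1+/+ differed among themselves. Gm8730 alone had 540, 1339 and 2853 counts in the Ptprz1+/+ libraries and 12127, 9183 and 8556 counts in those labelled Ptprz1-/-. On the log2 scale the difference was 2.77 ± 0.61 (SE) for Gm8730, 2.84 ± 0.64 for Gm9625 and 2.27 ± 0.36 for Gm14165. Groups of the 3 copies did not overlap, with unadjusted p = 0.00325, 0.00371 and 0.000519 and adjusted p = 1.0 for each (edgeR, Benjamini-Hochberg). Rplp0 and its copies summed were at 1982, 1865 and 1409 CPM and at 2342, 1963 and 1681 CPM. As for Rplp1, replicate 1 labelled Ptprz1-/- was highest and Ptprz1+/+ replicate 3 lowest, and the log2 fold change of the sum was 0.19 (standard error 0.25), close to the median of the members. Which of these genes the reads came from was not tested, since the files hold counts and not reads.

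**Figure D2:**
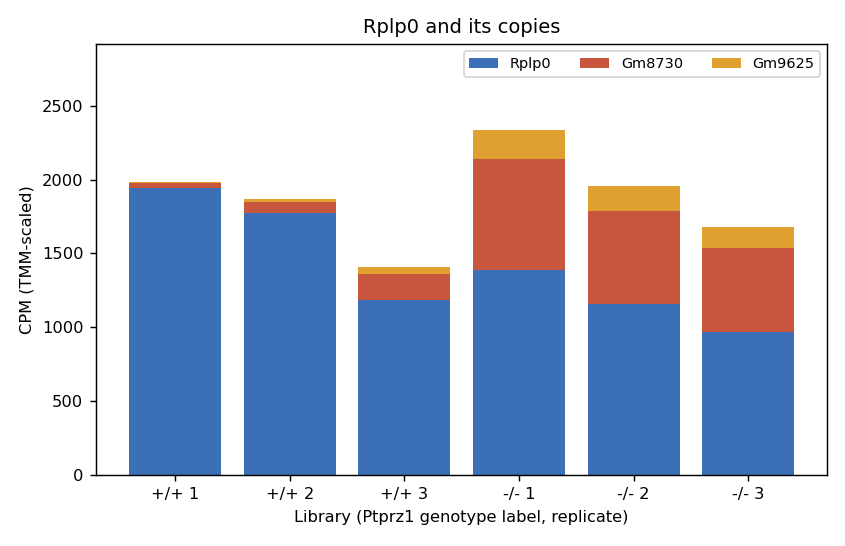
Stacked bars show CPM on the TMM-scaled library size (vertical axis, from 0) of Rplp0, Gm8730 and Gm9625 in each library by Ptprz1 genotype label and replicate. The copies form a thin part of the bar in +/+ replicates 1 and 2, a larger part in replicate 3, and about 40.6% to 42.3% in the 3 -/- libraries, with the remaining copies too small to draw.

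Such sharing was rare among the other members. At a minimum of 100 aligned bases and 90% identity, 371 genes elsewhere in the genome aligned to 69 of the members. For 53 of the 69 the copies held under 5% of the counts in every library, and for 7 they held over 20% in at least 1 library, namely Rpl24, Rpl30, Rpl34, Rplp0, Rps13, Rpl29 and Rpl23a. Copies of Rps13, a small subunit protein, held between 33.28% and 35.95% in every library, and those of Rpl34 between 39.34% and 41.51% in all but Ptprz1+/+ replicate 2, where they held 50.71%. Copies of Rpl30 held 54.05%, 36.95% and 43.44% in the Ptprz1+/+ libraries and 54.97%, 53.69% and 53.98% in those labelled Ptprz1-/-. Copies of Rpl29 held 1.928% in Ptprz1+/+ replicate 1 and between 17.58% and 28.79% in the other libraries. Among the 7, the copy shares of Rplp0 alone did not overlap between the genotypes. Some copies differed from their parent by very few bases, Gm12191 from Rpl30 at 1 of 348 and Rps13-ps1 from Rps13 at 2 of 522.

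**Figure D3:**
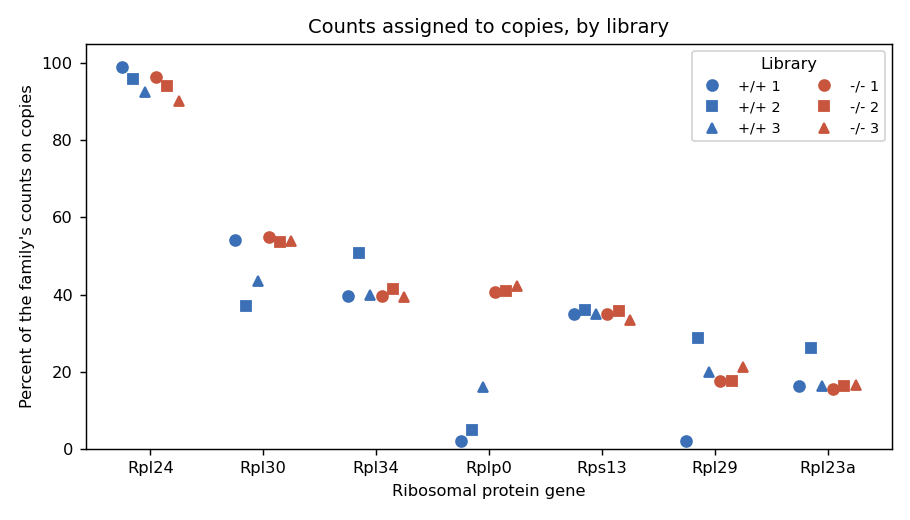
The vertical axis gives the percent of a family's counts that lay on copies, for the 7 ribosomal protein genes on the horizontal axis where this passed 20% in a library, with blue for +/+ and red for -/- and a symbol for each replicate. Rplp0 is the only one with all 3 red points above all blue points. Single blue points stand apart for Rpl34, Rpl29 and Rpl23a, and for Rpl30 the points of +/+ replicates 2 and 3 lie below the rest.

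Rpl24 (chr16:55966275-55971435), a large subunit protein at the bridge to the small subunit, was nearly absent under its own name. It had 1, 3 and 6 counts in the Ptprz1+/+ libraries and 4, 5 and 9 counts in those labelled Ptprz1-/-, too few to be tested, and its copies held between 90.11% and 99.04% of the family. Even with the copies the family was at only 4.01 to 6.96 CPM. Whether this low level comes from how reads were assigned was not tested. Rpl3l, the paralog of Rpl3 known from skeletal and heart muscle, had 0 to 9 counts per library and was also not tested.

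Counts of each member were then summed with those of its copies and the whole table was fitted again. The log2 fold change moved by over 0.1 for 3 members, Rplp0 from -0.48 to 0.19, Rpl30 from -0.20 to 0.08 and Rpl29 from -0.80 to -0.64, and by at most 0.1 for the other 75. Of 79 members then tested, 75 lay above 0, with a median log2 fold change of 0.202, and 0 had an adjusted p under 0.05 (edgeR).

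The small subunit genes spread over a narrow range. Of the 32, 31 had a log2 fold change above 0, with a median of 0.202 and a range from -0.093 to 0.316. Rps14, a protein of the platform of the small subunit, stood at 959, 895 and 876 CPM in Ptprz1+/+ cells, against 1169, 1082 and 1148 CPM in those labelled Ptprz1-/-, which gave a log2 fold change of 0.32 (standard error 0.16). Its lowest value in the libraries labelled Ptprz1-/- lay above all 3 Ptprz1+/+ libraries. Rps27, a small subunit protein with a zinc finger, was at 422, 403 and 389 CPM and at 493, 499 and 472 CPM, and its log2 fold change of 0.27 (standard error 0.13) kept between 0.243 and 0.305 with each library left out. Rps7 was at 563, 513 and 495 CPM and at 683, 653 and 592 CPM, with a log2 fold change of 0.30 (standard error 0.15). In these 3 genes the groups did not overlap, and replicate 3 labelled Ptprz1-/-, the lowest of its group for most members, stood above every Ptprz1+/+ library.

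Rps6, the small subunit protein that the S6 kinases phosphorylate, was at 622, 560 and 420 CPM and at 753, 668 and 511 CPM, with a log2 fold change of 0.27 ± 0.23 (SE), and its groups overlapped. Rps2, which lies at the entry of the mRNA channel, was at 1788, 2041 and 1163 CPM and at 2186, 1590 and 1311 CPM. Its log2 fold change of 0.03 (standard error 0.31) became -0.18 without Ptprz1+/+ replicate 3, and -0.19 without replicate 1 labelled Ptprz1-/-. Rpsa, also known as a precursor of the laminin receptor, was at 1383, 1554 and 993 CPM and at 1789, 1433 and 1165 CPM, with a log2 fold change of 0.16 (standard error 0.27) that was -0.01 without either of the same libraries. In all 3 genes libraries of the genotypes overlapped, and for Rps2 and Rpsa the SD within each genotype was larger than the difference of the means. Rps3 (0.30, standard error 0.19), Rps4x (0.13, standard error 0.19), Rps13 (0.12, standard error 0.17) and Rps27a (0.18, standard error 0.20), which is made as a fusion with ubiquitin, also had overlapping groups. These values are log2 fold changes.

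In the large subunit, 39 of 43 genes tested had a log2 fold change above 0, with a median of 0.198. Rpl35 (chr2:39001580-39005624), a protein near the exit of the peptide tunnel, stood at 106.0, 66.6 and 84.2 CPM in Ptprz1+/+ cells, against 142.9, 118.3 and 106.7 CPM in those labelled Ptprz1-/-. The groups touched, since the highest Ptprz1+/+ value and the lowest of the other group were almost equal. Its log2 fold change of 0.52 (standard error 0.21) was the largest of the members (unadjusted p = 0.0434, adjusted p = 1.0 by Benjamini-Hochberg, edgeR). It ranged from 0.37 without Ptprz1+/+ replicate 2, its lowest library, to 0.71 without Ptprz1+/+ replicate 1.

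Rpl23a, which lies at the same tunnel exit and contacts the signal recognition particle, was at 53.1, 26.4 and 42.5 CPM and at 65.8, 54.0 and 48.8 CPM. Its log2 fold change was 0.47 (standard error 0.27), and it ranged from 0.23 to 0.71 with each library left out. Rpl13a, which is also known as a translational silencer after interferon signals, was at 1435, 1199 and 1091 CPM and at 1741, 1664 and 1368 CPM, with a log2 fold change of 0.36 (standard error 0.21). In both genes a Ptprz1+/+ library lay above the lowest of the other group. Rpl34 was at 176, 138 and 158 CPM and at 219.8, 184 and 179.6 CPM, with a log2 fold change of 0.31 (standard error 0.15). Its groups did not overlap, although its copies took a larger share in Ptprz1+/+ replicate 2 than in the other libraries.

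Rpl5 and Rpl11, which with 5S ribosomal RNA can bind Mdm2 and so stabilize p53, differed little. Rpl5 was at 769, 621 and 543 CPM and at 834, 763 and 609 CPM, with a log2 fold change of 0.19 (standard error 0.21). Rpl11 was at 542, 537 and 449 CPM and at 638, 525 and 467 CPM, with a log2 fold change of 0.09 (standard error 0.18) that turned to -0.04 without replicate 1 labelled Ptprz1-/-. Both had overlapping groups. Rpl41, the smallest ribosomal protein, was at 996, 1095 and 820 CPM and at 1287, 1104 and 952 CPM, and its log2 fold change of 0.20 (standard error 0.21) was that of the median member.

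Few members had a log2 fold change below 0, and the lowest rested on 1 library. Rpl29 (chr9:106429454-106431568), a large subunit protein also known as a heparin-binding protein, stood at 396, 77.6 and 65.4 CPM in Ptprz1+/+ cells, against 127, 111 and 71.6 CPM in those labelled Ptprz1-/-. Ptprz1+/+ replicate 1 stood far above the other 5 libraries, which lay between 65.4 and 127 CPM. The log2 fold change was -0.80 (standard error 0.71) with it and 0.54 without it. Rpl30 (chr15:34440505-34443640), which binds a kink-turn in RNA, was at 131, 212 and 138 CPM and at 146, 152 and 120 CPM, a log2 fold change of -0.20 (standard error 0.22) that was 0.05 without Ptprz1+/+ replicate 2, the high library. Rpl39l, a paralog of Rpl39 known from testis, had between 10 and 27 counts per library and a log2 fold change of -0.56 (standard error 0.40). Rps4l, a paralog of Rps4x, was at 11.8, 20.2 and 13.9 CPM and at 12.7, 8.72 and 21.7 CPM, with a log2 fold change of -0.09 (standard error 0.38). Rpl37a was the last of the 6, at -0.02 (standard error 0.17).

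**Figure D4:**
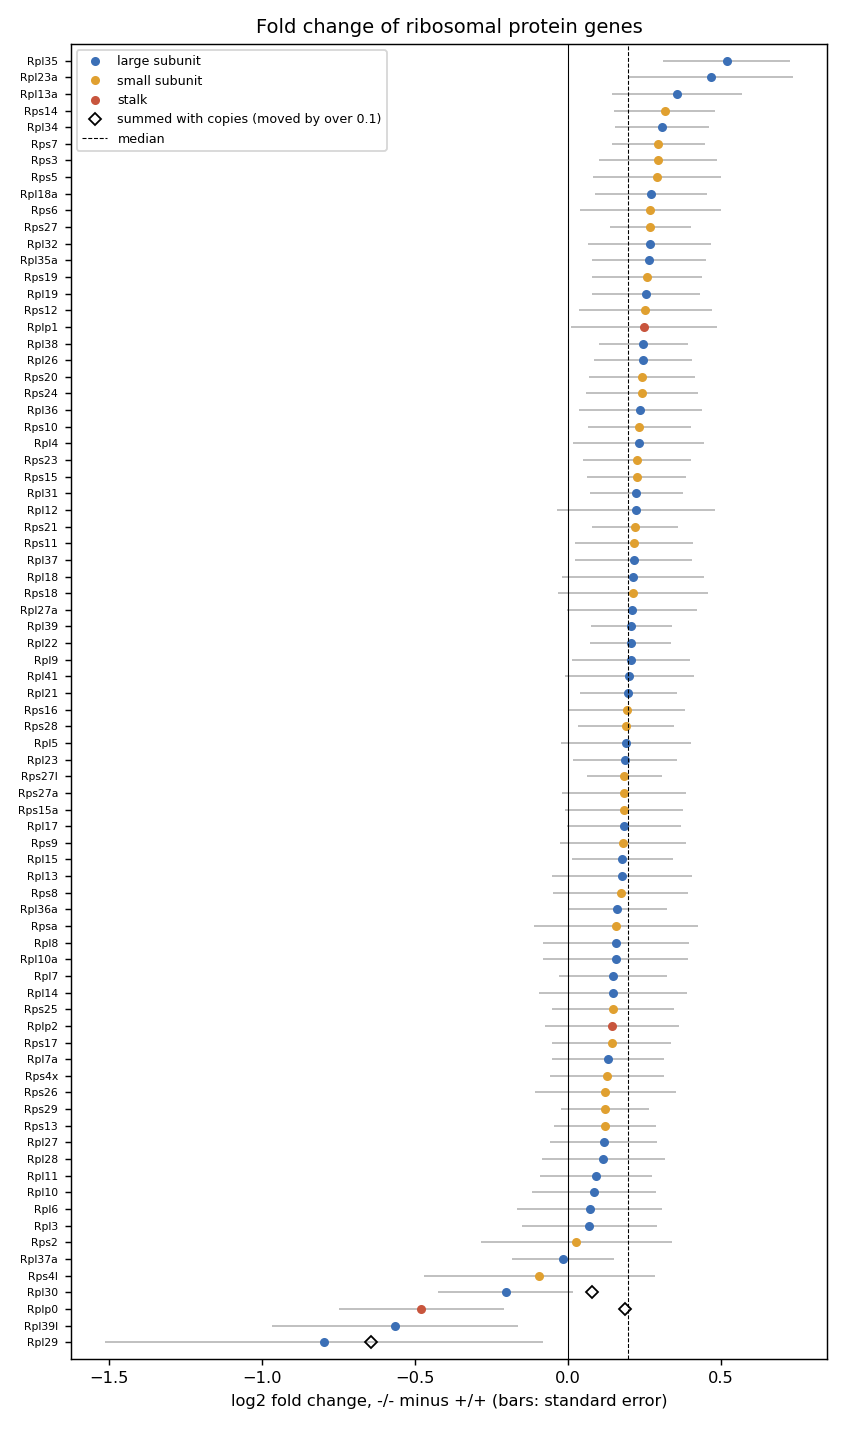
Points give the log2 fold change of the 78 tested ribosomal protein genes (horizontal axis, -/- minus +/+, bars of 1 standard error) in order of size, coloured by subunit, and diamonds give the value with copies summed where it moved by over 0.1. Most points sit between 0 and 0.37 with bars that reach towards 0, and the diamonds of Rplp0 and Rpl30 lie on the right of 0.

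In 10 members the 3 libraries labelled Ptprz1-/- all lay above the 3 Ptprz1+/+ libraries (12.82%, against 3.55% of all genes tested), and in 0 did they all lie below (against 3.73% of all genes). The 10 were Rpl22, Rpl31, Rpl34, Rpl35, Rpl39, Rps7, Rps14, Rps21, Rps27 and Rps27l. For a single gene of 3 libraries against 3 the exact two-sided permutation test gives p = 0.1 in this case, which is the smallest it can give. Without Ptprz1+/+ replicate 3 the count was 10 members (12.82%), against 7.524% of all genes. Without replicate 1 labelled Ptprz1-/- it was 10 members (12.82%), against 7.539% of all genes. Leaving out a library cannot lower such a count and makes it easier for groups not to overlap. The rise in the share of all genes therefore cannot show what the library left out contributed. Rpl31 was at 647, 570 and 597 CPM and at 738, 699 and 682 CPM, a log2 fold change of 0.22 (standard error 0.15). Rps21 was at 448, 457 and 408 CPM and at 517, 524 and 486 CPM, with a log2 fold change of 0.22 (standard error 0.14). Rpl39, which lines the peptide tunnel, was at 352, 320 and 324 CPM and at 405, 382 and 363 CPM, with a log2 fold change of 0.21 (standard error 0.13). In these genes the gap between the nearest libraries of the groups was smaller than the range of the libraries labelled Ptprz1-/-, while the difference of the means was larger than that range.

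Paralogs were set beside their parents. Rps27l, a paralog of Rps27 that p53 can induce, was at 150, 128 and 149 CPM and at 158, 172 and 156 CPM, a log2 fold change of 0.18 (standard error 0.12). Rpl22 was at 267, 262 and 242 CPM and at 314, 307 and 269 CPM, with a log2 fold change of 0.21 (standard error 0.13), while its paralog Rpl22l1, outside the name rule, was at 130, 85.9 and 92.6 CPM and at 175, 137 and 103 CPM, with a log2 fold change of 0.43 (standard error 0.25). Rpl22l1 had overlapping groups.

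By the share of all counts, the members took 4.984%, 5.012% and 3.831% in the Ptprz1+/+ libraries and 6.175%, 4.973% and 4.661% in those labelled Ptprz1-/-, which is 4.61% ± 0.674 and 5.27% ± 0.799 (SD, n = 3 each). The groups overlapped, and the difference of the means was smaller than the spread within a genotype. Small subunit genes took 0.692, 0.731 and 0.711 counts per count on large subunit and stalk genes in the Ptprz1+/+ libraries, and 0.728, 0.732 and 0.742 in those labelled Ptprz1-/-. The balance of the subunits thus varied little between libraries, while the total varied more. Copies took 0.138%, 0.149% and 0.131% of all counts in the Ptprz1+/+ libraries and 0.274%, 0.217% and 0.207% in those labelled Ptprz1-/-. This difference includes the copies of Rplp0 described above, which had 679, 1648 and 3611 counts in the Ptprz1+/+ libraries. In those labelled Ptprz1-/- they had 15315, 11735 and 10768 counts. The share of the other copies alone was not computed, so the difference cannot be read as one of copies in general.

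**Figure D5:**
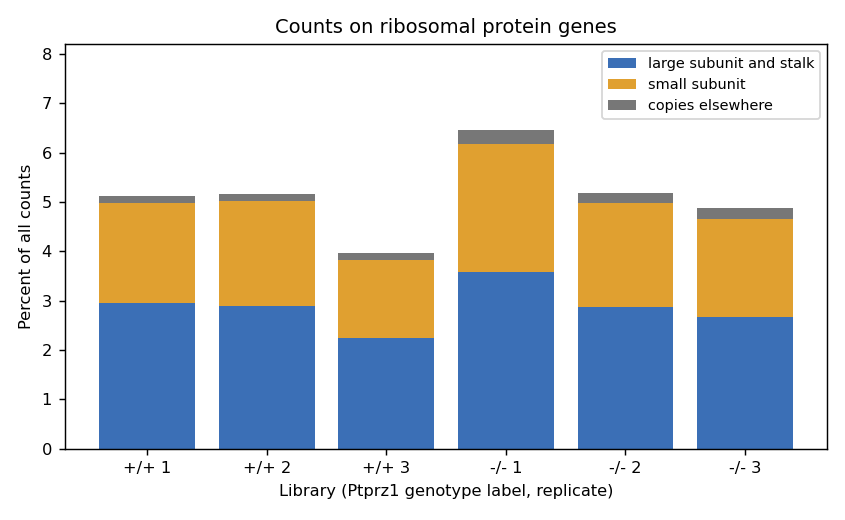
Stacked bars give the percent of all counts of a library (vertical axis, from 0) on large subunit and stalk genes, small subunit genes and their copies, for each library by Ptprz1 genotype label and replicate. The tallest bar is -/- replicate 1 and the shortest +/+ replicate 3, and the division between the subunits is alike in all 6.

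Levels per length differed widely among the members. In FPKM, counts scaled to the length of the gene model and to the total of the library, the median member was at 628 and 73 of the 80 were over 100. Rplp1 was highest at 3341 FPKM, followed by Rps27 at 1750, Rps2 at 1539, Rpl41 at 1501 and Rps14 at 1497, where the last 3 are close. The lowest were Rpl3l at 0.148, Rpl24 at 0.442, Rpl39l at 1.21, Rps4l at 15.9 and Rpl30 at 62.1. Copies held 90.11% to 99.04% of the counts of the Rpl24 family and 36.95% to 54.97% of those of the Rpl30 family. The FPKM of Rpl24 and Rpl30 therefore covers only a part of their families. The deposited gene length, whose derivation is not given in the sources used here, was between 0.519 and 8.02 times the length of the coding mRNA taken from GENCODE, and 16 members moved by over 20 ranks when the mRNA length was used. The order is therefore a rough one.

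Genes related by function were read from the same fit, and 0 of them had an adjusted p under 0.05 (edgeR). All 6 listed ribosomal proteins outside the name rule had a log2 fold change above 0 (median 0.251), among them Rack1, a scaffold on the small subunit, with 1138, 937 and 770 CPM in Ptprz1+/+ cells and 1391, 1190 and 965 CPM in those labelled Ptprz1-/-. Of 39 cytosolic translation factors, 31 lay above 0 with a median of 0.083. Of 44 genes of ribosome biogenesis and RNA polymerase I, 36 lay above 0 with a median of 0.099, and of 76 mitochondrial ribosomal protein genes 62 did, with a median of 0.103. The mitochondrial ribosomal proteins shared the library pattern in part, with the highest value in replicate 1 labelled Ptprz1-/- for 40 and the lowest in Ptprz1+/+ replicate 3 for 46. Of 13 listed subunits of the initiation factor eIF3, 9 had overlapping groups, with log2 fold changes from -0.014 to 0.379. In the other 4 the libraries labelled Ptprz1-/- all lay higher, which 3.55% of all genes did, and these were Eif3f (0.22, standard error 0.12), Eif3h (0.24, standard error 0.12), Eif3k (0.18, standard error 0.11) and Eif3m (0.15, standard error 0.11), where the values are log2 fold changes and the genes were named after these were seen.

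Of 26 genes that control growth and translation, 20 lay above 0 with a median log2 fold change of 0.088. Larp1, the protein that binds terminal oligopyrimidine mRNAs, was at 0.02 (standard error 0.20), Mtor at 0.09 (standard error 0.15) and Myc, a driver of ribosome production, at 0.35 (standard error 0.47). Mycn, its relative, was at 1.87, 0.825 and 2.15 CPM and at 9.12, 2.13 and 4.16 CPM, a log2 fold change of 1.67 (standard error 0.63, unadjusted p = 0.0353, edgeR). Its highest value was in the library that held the highest ribosomal protein values. The other libraries did not keep that order, since Ptprz1+/+ replicate 3, the lowest for most members, was the highest of its group for Mycn. Its groups overlapped, and it had between 15 and 147 counts per library. Rps6kb1, the kinase of Rps6, was at 78.8, 83.7 and 81.7 CPM and at 56.3, 72.1 and 78.4 CPM. Its log2 fold change was -0.24 ± 0.15 (SE, unadjusted p = 0.156, edgeR). Its groups did not overlap, but they touched, since 78.8 and 78.4 CPM are almost equal. Of all genes tested, 3.73% lay lower without overlap.

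The lists of cell types and cell cycle stand here for comparison. None of the 10 endothelial markers had a log2 fold change above 0 (median -1.43), 2 of 10 fibroblast markers did (median -0.46), 6 of 6 mesothelial markers did (median 2.40), 0 of 3 leukocyte markers tested did (median -1.002) and 0 of 8 cell cycle genes did (median -1.62). Of these, 0 had an adjusted p under 0.05 (edgeR). The endothelial sum was highest in Ptprz1+/+ replicate 3 (538 CPM) and the mesothelial sum in replicate 1 labelled Ptprz1-/- (1380 CPM). Both sums overlapped between the genotypes, so the medians of these lists are not differences that every library shared. The cell cycle genes summed to 178, 781 and 111 CPM in the Ptprz1+/+ libraries and to 216, 116 and 137 CPM in those labelled Ptprz1-/-. Their highest sum was in Ptprz1+/+ replicate 2, a library near the middle of the ribosomal protein values.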

How the data were processed

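The authors deposited a table with the count of reads per gene in each of 6 libraries, without normalization, and FPKM values that they computed from these counts with a gene length. Columns with the authors' own comparison (fold changes and p-values) and their lists of called genes were not used. The submitters' processing notes name STAR, TopHat, HTSeq, DESeq2, edgeR and GRCm38 (mm10) without a role for each. Which annotation release was used, and whether counting used strand, is not given in the sources used here. Reads of genes with near-identical copies may have been split or left out, which bears on the members named with copies.

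Counts of all 21999 genes were fitted with edgeR 4.0.16 (R 4.3.3), using TMM factors, the filterByExpr filter and the functions glmQLFit and then glmQLFTest, with genotype alone in the model, and p-values were adjusted by Benjamini-Hochberg over the 13609 genes that passed the filter, with a threshold of 0.05. The standard error was taken as the size of the log2 fold change over the square root of F. CPM values are per TMM-scaled library. The functions were tested on simulated data. Transcripts of GENCODE M21 were aligned with minimap2 2.31 to find copies, which covered at least 100 bases at 90% identity and 50% of the copy's transcript. Promoter windows are from RefSeq. Replicates are separate isolations.

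The members and gene lists were chosen with earlier results of these data known. The text names the stalk genes and the copies of Rplp0, the 5 highest and 5 lowest members by log2 fold change, members whose groups did not overlap, members with a large share of counts on copies, the highest and lowest by level, and a short list of well-known members. Alternatives were DESeq2 1.42.0, limma 3.58.1 voom, other normalizations and filters, a replicate block, each library left out, and counts summed with copies. Added after seeing the data were levels by mRNA length, the median without Rplp0, shares per library and the count of non-overlapping members without a library. Depth was 14496881 to 17709663 counts per library. A further gene of a list is not reported here.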

Additional observations from a re-analysis of the deposited data

How the results depend on the processing

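The whole table was fitted in 15 ways. The count of members past an adjusted p of 0.05 was 0 in every fit, and the count of all genes was 0 except with DESeq2, which called 30 genes. The cause was not tested. At an unadjusted p under 0.05 there were 366 genes, 553 with no filter on low counts and 676 without Ptprz1+/+ replicate 1. The median log2 fold change of the members was between 0.187 and 0.209 with DESeq2, upper-quartile normalization, factors computed without the ribosomal protein genes, other filters, limma voom and copies summed, and 0.198 without Rplp0. With each library left out in turn it ranged from 0.089 to 0.298, with 63 to 75 members above 0. Of 406 values of 29 named genes, 395 kept their direction. With copies summed, the log2 fold change was 0.079 for Rpl30 and 0.188 for Rplp0. The others changed sign with a library left out, and over these 6 fits Rpl29 ranged from -1.197 to 0.535 (without Ptprz1+/+ replicate 1), Rpl30 from -0.325 to 0.046 (without Ptprz1+/+ replicate 2), Rps4l from -0.514 to 0.166 (without replicate 2 labelled Ptprz1-/-, and 0.159 without Ptprz1+/+ replicate 2), Rps2 from -0.193 to 0.201, Rpsa from -0.007 to 0.30 and Rpl11 from -0.035 to 0.191. The lowest values of the last 3 were without replicate 1 labelled Ptprz1-/-, and without Ptprz1+/+ replicate 3 Rps2 was at -0.176 and Rpsa at -0.006. With the replicate number as a replicate block, 0 genes passed, 690 had an unadjusted p under 0.05, and the median of the members was 0.194 with 72 above 0. Whether the numbers pair the samples could not be told. Deviations of same-numbered libraries from their group means correlated at 0.446, -0.061 and 0.523 for replicates 1 to 3. Those of libraries with unlike numbers correlated between -0.568 and 0.092. With 3 libraries per genotype and standard errors of about 0.193, differences of the size of the members' median could not be resolved gene by gene. Low members (Rpl24, Rpl3l and Rpl39l) rested on at most 27 counts per library, which limits what their values can show. For Rpl24, how the reads of its family were assigned was not tested.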
